A study of Homo sapiens with 9 samples.

Results

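The kinesin family was examined in MDA-MB-231 cells, an established human triple-negative breast cancer (TNBC) cell line, after 24 h without or with 2-deoxy-glucose (2-DG), a glucose analogue that blocks glycolysis. Members were all listed genes whose symbol was KIF or KIFC followed by a number and at most a letter and a digit, which gave 42 of the 61552 genes listed. Of these, 11 motors with a known task in cell division were grouped as mitotic kinesins (KIF11, KIF14, KIF15, KIF18A, KIF20A, KIF20B, KIF22, KIF23, KIF2C, KIF4A and KIFC1), and the other 31 were compared with them. CENPE, a kinetochore kinesin without a KIF symbol, and the kinesin-binding proteins KIFBP and KIFAP3 are not members. The cells were wild type, grown with serum, and were all of 1 line. The control group received 0 mM 2-DG and the treated groups 10 mM or 20 mM, with 3 libraries each, and nothing in the labels says whether these came from separate cultures, so the spread between libraries may be technical.

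Kinesins are motor proteins that use ATP to move along microtubules or to shorten them. A set of them builds the mitotic spindle, moves chromosomes and closes the cleavage furrow, and their genes are transcribed mainly in late S phase, G2 and mitosis. Others carry vesicles, mitochondria or ciliary cargo. Messenger RNA was measured by sequencing of libraries made from extracted total RNA with an mRNA-Seq kit. Levels were given as FPKM, the number of reads scaled by the length of the gene and by the total counted in the library. In bulk RNA of this kind, fewer cells in G2 and mitosis and less of each transcript per cell cannot be told apart.

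The totals counted on genes ranged from 34300991 to 36650036 in the control, from 34374980 to 40843638 at 10 mM and from 30974968 to 39780925 at 20 mM, so that 1 read on a gene of 1 kb was worth between 0.0245 and 0.0323 FPKM. Libraries of one group correlated at a Pearson r of 0.989 to 0.996 on the log2(FPKM + 1) scale, with the lowest value between libraries 1 and 2 of the 10 mM group. Differences were tested by limma on log2(FPKM + 1) over 16572 genes, and a gene was called lower or higher at a Benjamini-Hochberg adjusted p under 0.05. All log2 fold changes below are on this scale, which understates changes of genes at low FPKM, and errors of means are SD over 3 libraries. Of 5 mesenchymal markers, VIM, CD44 and FN1 were abundant (285, 69.8 and 65.4 FPKM on average in the control), ZEB1 stood at 5.06 FPKM and SPARC at only 0.0774 FPKM. Of 4 epithelial markers, KRT8 and KRT18 were abundant too (141 and 150 FPKM), and EPCAM and CDH1 were low (3.75 and 0.365 FPKM). CD44, KRT8 and CDH1 were called lower at both doses. The summed level of the epithelial markers was 276 to 322 FPKM in the control, 217 to 257 FPKM at 10 mM and 214 to 232 FPKM at 20 mM, and that of the mesenchymal markers 410.3 to 440.5, 379.6 to 433 and 379 to 401 FPKM. The part of these changes in the results below was not tested. ESR1 and PGR, the hormone receptors that TNBC lacks, did not exceed 0.0204 FPKM in any library. ERBB2, the other receptor looked at, had 8.81 FPKM on average in the control, 5.91 FPKM at 10 mM and 5.76 FPKM at 20 mM. It was called lower at both doses (log2 fold changes -0.51 and -0.54), and its part in the results below was not tested. Of 5 markers of leukocytes, endothelium, liver and muscle, DES was at 0 and PTPRC and ALB at no more than 0.041 FPKM. The summed level of these 5 was 2.15 to 2.49 FPKM in the control, 1.59 to 1.93 FPKM at 10 mM and 1.23 to 1.6 FPKM at 20 mM, nearly all from PECAM1 and ACTA2, and its part in the results below was not tested.

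Of the 42 kinesins, 33 passed the filter on low values, namely all 11 mitotic members and 22 of the other 31. KIF19, KIF26A and KIF2B had no read in any library. KIF12, KIF1A, KIF4B, KIF5A, KIF5C and KIF6 had at most 25 reads over all 9 libraries and never exceeded 0.0319 FPKM. KIF1A, KIF5A and KIF5C are known as neuronal transport motors, and KIF2B and KIF4B are close relatives of KIF2A and KIF4A. The 9 were not tested. KIF5C had 11 reads over the control libraries, 2 at 10 mM and 0 at 20 mM, with every treated library below every control library, and KIF5A had 9, 15 and 1 reads, with overlapping groups.

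In the control, the mitotic kinesins held 53.5% ± 0.966 of the summed FPKM of all kinesins. The share was 54.1%, 52.4% and 54.0% in the 3 control libraries, 31.6%, 34.0% and 36.1% at 10 mM and 28.3%, 28.4% and 26.6% at 20 mM. The groups did not overlap. Behind this shift, the summed FPKM of mitotic kinesins went from 229 ± 5.42 in the control to 82.0 ± 6.45 at 10 mM and 60.2 ± 1.40 at 20 mM, whereas that of the others went from 199 ± 8.62 to 160 ± 12.9 and 157 ± 5.25. Most of the loss of kinesin transcripts was thus in the mitotic members. With KIF18B, KIF2A, KIF4B and KIF24, which also act on spindle or centriolar microtubules, counted as mitotic, the shares were 61.3%, 39.0% and 32.0%.

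**Figure D1:**
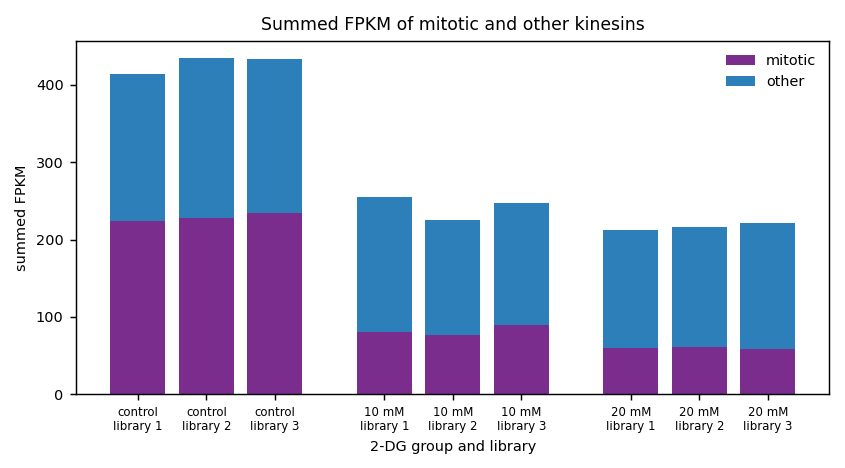
Summed FPKM (y axis) of the 11 mitotic kinesins (purple) and the 31 other kinesins (blue, stacked above) in each of the 9 libraries. The purple part lies between 224 and 234 FPKM in the control libraries and between 58.9 and 61.7 FPKM at 20 mM.

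The order of the levels changed with it. In the control the 5 kinesins with the highest mean FPKM were KIFC1 (66.2 ± 2.46), KIF2C (48.1 ± 1.22), KIF1C (44.3 ± 1.48), KIF20A (37.0 ± 2.71) and KIF5B (31.6 ± 5.97), of which 3 are mitotic. KIF20A and KIF5B, neighbours in this order, overlapped between libraries. At 20 mM the 5 highest were KIF1C (38.4 ± 0.763), KIFC3 (25.1 ± 0.146), KIF5B (23.0 ± 2.00), KIF3B (17.5 ± 0.919) and KIFC1 (16.8 ± 0.465), of which 1 is mitotic. There KIFC3 and KIF5B overlapped, and so did KIF3B and KIFC1.

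All 11 mitotic kinesins were lower at both doses. At 10 mM, 11 of 11 were called lower, beside 17.5 percent of all genes tested, and at 20 mM 11 of 11, beside 21.6 percent. Their median log2 fold change was -1.14 at 10 mM (range -1.62 to -0.85) and -1.48 at 20 mM (range -2.06 to -0.96), where the median of all genes was -0.01 and -0.02. In mean FPKM, between 30.6% and 44.6% of the control level was left at 10 mM, and between 21.8% and 38.7% at 20 mM. By the thresholds of the study's methods (a log2 fold change beyond 1 in either direction at p under 0.05 before adjustment), 9 of 11 were lower at 10 mM (beside 1.16 percent of all genes) and 10 of 11 at 20 mM (beside 1.96 percent). The study applied them with DESeq2, whereas here they were set on limma differences of log2(FPKM + 1). KIF14 fell short at both doses and KIF20B at 10 mM. Their log2 ratios of mean FPKM were -1.16 and -1.37 for KIF14 and -1.25 for KIF20B. In every one of the 11, no treated library reached a control library, which was so for 22.7 percent of all genes at 10 mM and 29.9 percent at 20 mM. Under 17 other fits, with other scalings, filters, pseudocounts or libraries left out, all 11 were called at both doses, with adjusted p of at most 0.00959 from limma.

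**Figure D2:**
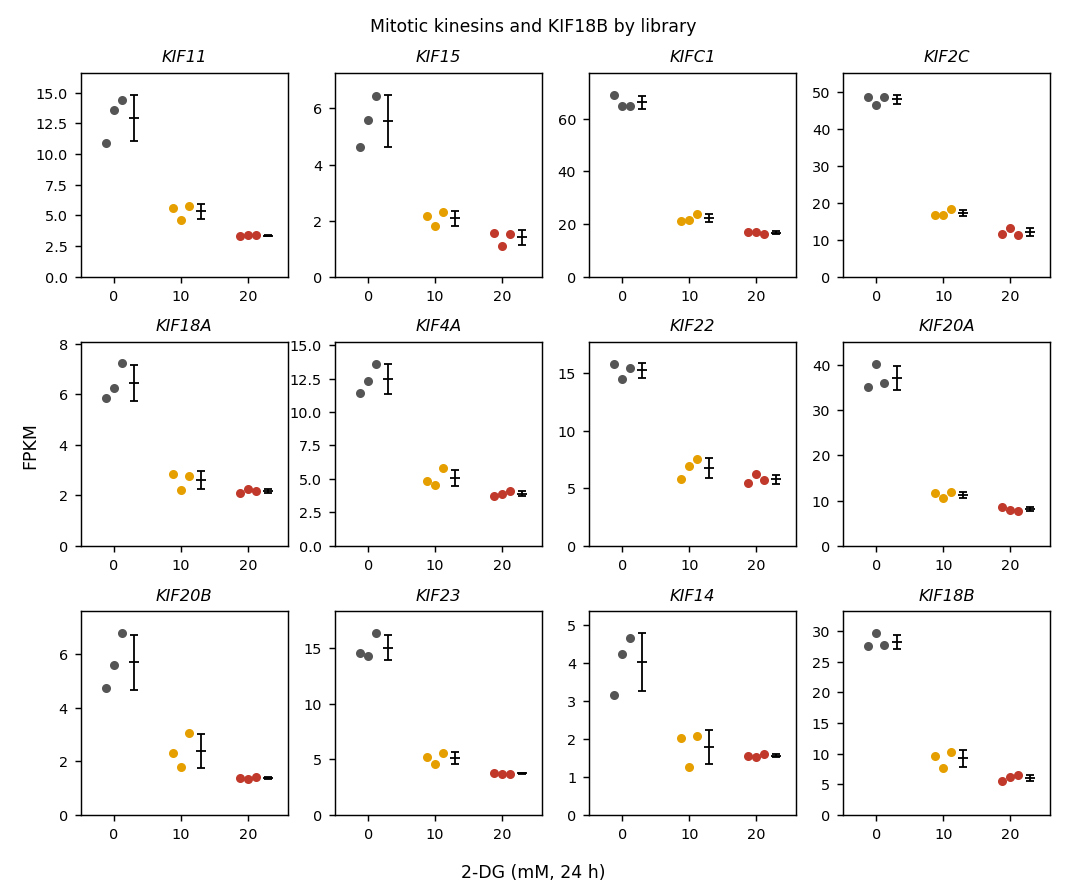
FPKM (y axis, from 0) of the 11 mitotic kinesins and KIF18B against the dose of 2-DG (x axis, mM). Points are libraries, in the order of their numbers, and bars are the mean ± SD of 3 libraries; in every panel the 6 treated libraries lie below the 3 control libraries.

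Spindle poles are driven apart by KIF11 (Eg5), the tetrameric kinesin-5 that slides antiparallel microtubules, with KIF15 as a second motor for the same task. KIF11 (chr10:92593286-92655395, plus strand, here and below the GENCODE release 29 gene on GRCh38) had 10.9, 13.6 and 14.4 FPKM in the control, 5.57, 4.66 and 5.77 FPKM at 10 mM and 3.28, 3.38 and 3.41 FPKM at 20 mM. All 3 groups were separate. Its log2 fold change was -1.14 ± 0.11 (SE, limma's adjusted p = 6.1e-05) at 10 mM and -1.67 ± 0.11 (adjusted p = 3.3e-06) at 20 mM. KIF15 (chr3:44761717-44873376, plus strand) had 4.63, 5.57 and 6.45 FPKM in the control, 2.18, 1.79 and 2.31 FPKM at 10 mM and 1.58, 1.09 and 1.54 FPKM at 20 mM. Again no group reached into another, and its log2 fold changes were -1.08 ± 0.13 and -1.44 ± 0.13. KIFC1 (HSET), a minus-end-directed kinesin-14 that focuses spindle poles and clusters extra centrosomes, was the most abundant kinesin of the control cells. KIFC1 (chr6:33391536-33409924, plus strand) had 69, 64.9 and 64.7 FPKM in the control, 21.1, 21.4 and 24.0 FPKM at 10 mM and 17.1, 17.0 and 16.2 FPKM at 20 mM, with log2 fold changes of -1.54 ± 0.062 (adjusted p = 8.41e-07) and -1.92 ± 0.062 (adjusted p = 1.44e-07, limma).

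KIF2C (MCAK) removes tubulin from microtubule ends at the kinetochore and corrects wrong attachments, and KIF18A dampens chromosome movement at the metaphase plate. For KIF2C (chr1:44739818-44767767, plus strand), FPKM was 48.7, 46.7 and 48.8 in the control, 16.8, 16.7 and 18.4 at 10 mM and 11.7, 13.3 and 11.3 at 20 mM. It kept 36.0% and 25.2% of its control level. KIF18A (chr11:28020620-28108308, minus strand) stood at 5.86, 6.23 and 7.22 FPKM in the control, 2.86, 2.20 and 2.78 FPKM at 10 mM and 2.10, 2.26 and 2.16 FPKM at 20 mM. Both doses left KIF18A below every control library, but the 2 doses overlapped each other.

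KIF4A and KIF22 (Kid) bind chromosomes and push their arms away from the poles, and KIF4A later limits the length of the central spindle. The values of KIF4A (chrX:70290090-70420832, plus strand) were 11.4, 12.3 and 13.6 FPKM in the control, 4.86, 4.57 and 5.78 FPKM at 10 mM and 3.74, 3.86 and 4.12 FPKM at 20 mM. Those of KIF22 (chr16:29790719-29805385, plus strand) were 15.8, 14.5 and 15.5 FPKM, 5.80, 6.98 and 7.56 FPKM and 5.48, 6.20 and 5.69 FPKM in the same order. The 20 mM libraries of KIF4A all lay below its 10 mM libraries, while the doses overlapped for KIF22. KIF22 shares 561 of its 4312 annotated exon bases with AC009133.4 on the opposite strand. KIFC1 shares 424 of 3345 with RPL12P1, also on the opposite strand. The sources used here do not say whether counting used strand.

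The kinesin-6 motors KIF20A (MKLP2), KIF20B (MPP1) and KIF23 (MKLP1), with the kinesin-3 motor KIF14, bundle the central spindle and act in cytokinesis. KIF20A (chr5:138178719-138187715, plus strand) had 35.0, 40.1 and 36.0 FPKM in the control, 11.6, 10.6 and 11.8 FPKM at 10 mM and 8.53, 7.97 and 7.75 FPKM at 20 mM. It had the largest log2 fold change of the 11 at both doses, -1.62 ± 0.071 (adjusted p = 9.52e-07) and -2.06 ± 0.071 (adjusted p = 1.55e-07, limma). KIF23 (chr15:69414246-69448427, plus strand) had 14.5, 14.3 and 16.4 FPKM, 5.23, 4.55 and 5.60 FPKM and 3.81, 3.69 and 3.69 FPKM at 0, 10 and 20 mM. KIF20B (chr10:89701610-89774939, plus strand) had 4.72, 5.59 and 6.76 FPKM, 2.32, 1.80 and 3.06 FPKM and 1.37, 1.36 and 1.40 FPKM. All 3 kinesin-6 genes separated the 3 groups without overlap. Of all genes, 22.7 percent were lower without overlap at 10 mM against control and 7.14 percent at 20 mM against 10 mM. The share for all 3 groups at once was not computed. KIF14 (chr1:200551497-200620734, minus strand) had the smallest change of the 11, with 3.16, 4.23 and 4.65 FPKM in the control, 2.02, 1.27 and 2.08 FPKM at 10 mM and 1.56, 1.52 and 1.59 FPKM at 20 mM. Its log2 fold changes were -0.85 ± 0.14 (adjusted p = 0.00198) and -0.96 ± 0.14 (adjusted p = 0.000693, limma).

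Between 20 mM and 10 mM, limma called 0 genes of 16572 and limma-voom on reads recovered from the FPKM values also called 0, so 0 percent of all genes and 0 kinesins. At an unadjusted p under 0.05, 684 genes were lower (4.13 percent) and 455 higher (2.75 percent). The estimates of all 11 mitotic kinesins were below 0 (median -0.37, range -0.54 to -0.11), 8 of them at an unadjusted p under 0.05, and the same 8 separated the doses without overlap, as 7.14 percent of all genes did. The other 3, KIF14, KIF18A and KIF22, overlapped. Adjusted p of the 11 from limma lay between 0.11 and 0.971, so that a further decrease from 10 mM to 20 mM was not called for any of them. The interval of the difference was -0.78 to -0.29 for KIF11 and -0.44 to 0.21 for KIF14 (95%, unadjusted).

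Since the mitotic members moved together, their promoters were compared (RefSeq starts on GRCh38.p14, 250 bases before to 50 after the start). All 11 mitotic and 23 of the 31 other kinesins had an entry. Genes of G2 and mitosis often carry the cell cycle genes homology region (CHR), with the core TTTGAA, close to CCAAT boxes, which bind NF-Y. The CHR core was found, on either strand, in 8 of 11 mitotic kinesins (72.7%), in 3 of 23 others (13%) and in 15.4% of the 27305 promoters of the table. CCAAT was found in 9 of 11 (81.8%), 8 of 23 (34.8%) and 35.7%, and both together in 7 of 11 (63.6%), 3 of 23 (13%) and 6.08%. The 3 others with both were KIF18B, KIF4B and KIF5B. The E2F-type letters TTCGCGC or TTGGCGC, which can share bases with a CCAAT on the other strand, were in 2 of 11, 2 of 23 and 5.18%. KIF2C, whose level fell to 25.2% of the control at 20 mM, held none of these letters in its window. KIF20A, with the largest log2 fold change of the 11, and KIF22 held CCAAT but no CHR core. KIF15 held a CHR core but no CCAAT. KIF5B held both and was not called at either dose. Whether a match went with a decrease was not tested. These matches are letters in a window and were not measured as binding.

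Stretches of 160 bases upstream are shown for KIF11, which has both motifs in this stretch, for KIF14 and KIF20B, whose CHR cores lie after the start and outside it, for KIF2C, which has neither, for KIF18B, which had the largest decrease among the other kinesins, and for the transport motors KIF3B, which was not called, and KIF17, which rose. They are chr10:92592970-92593129 (plus strand), chr1:200620752-200620911 (minus), chr10:89701430-89701589 (plus), chr1:44739677-44739836 (plus), chr17:44947774-44947933 (minus), chr20:32277491-32277650 (plus) and chr1:20718008-20718167 (minus), all GRCh38.p14 from RefSeq and written 5′ to 3′ on the gene's strand. Capitals mark CCAAT or its reverse complement ATTGG, and the CHR core or its reverse complement TTCAAA.
KIF11: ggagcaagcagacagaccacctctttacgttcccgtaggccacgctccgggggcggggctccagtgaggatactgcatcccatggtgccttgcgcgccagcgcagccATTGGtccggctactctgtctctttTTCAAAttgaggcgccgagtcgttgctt
KIF14: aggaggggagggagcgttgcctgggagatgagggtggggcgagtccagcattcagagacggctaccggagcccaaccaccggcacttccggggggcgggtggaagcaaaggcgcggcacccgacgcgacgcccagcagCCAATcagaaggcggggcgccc
KIF20B: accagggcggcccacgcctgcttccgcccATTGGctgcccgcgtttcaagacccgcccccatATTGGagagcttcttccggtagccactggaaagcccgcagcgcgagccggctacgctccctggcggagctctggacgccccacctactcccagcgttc
KIF2C: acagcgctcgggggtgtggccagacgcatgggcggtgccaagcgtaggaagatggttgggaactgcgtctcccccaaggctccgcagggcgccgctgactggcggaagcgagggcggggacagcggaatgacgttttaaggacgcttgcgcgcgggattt
KIF18B: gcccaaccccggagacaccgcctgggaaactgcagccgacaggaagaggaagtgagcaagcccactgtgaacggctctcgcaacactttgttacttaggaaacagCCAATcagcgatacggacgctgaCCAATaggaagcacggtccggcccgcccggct
KIF3B: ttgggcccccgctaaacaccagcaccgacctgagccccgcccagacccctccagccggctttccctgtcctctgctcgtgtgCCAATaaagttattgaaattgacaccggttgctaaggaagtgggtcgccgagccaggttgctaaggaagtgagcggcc
KIF17: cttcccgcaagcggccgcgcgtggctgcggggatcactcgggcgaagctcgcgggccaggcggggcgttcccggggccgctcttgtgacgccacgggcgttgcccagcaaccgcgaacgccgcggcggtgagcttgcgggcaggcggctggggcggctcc

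**Figure D3:**
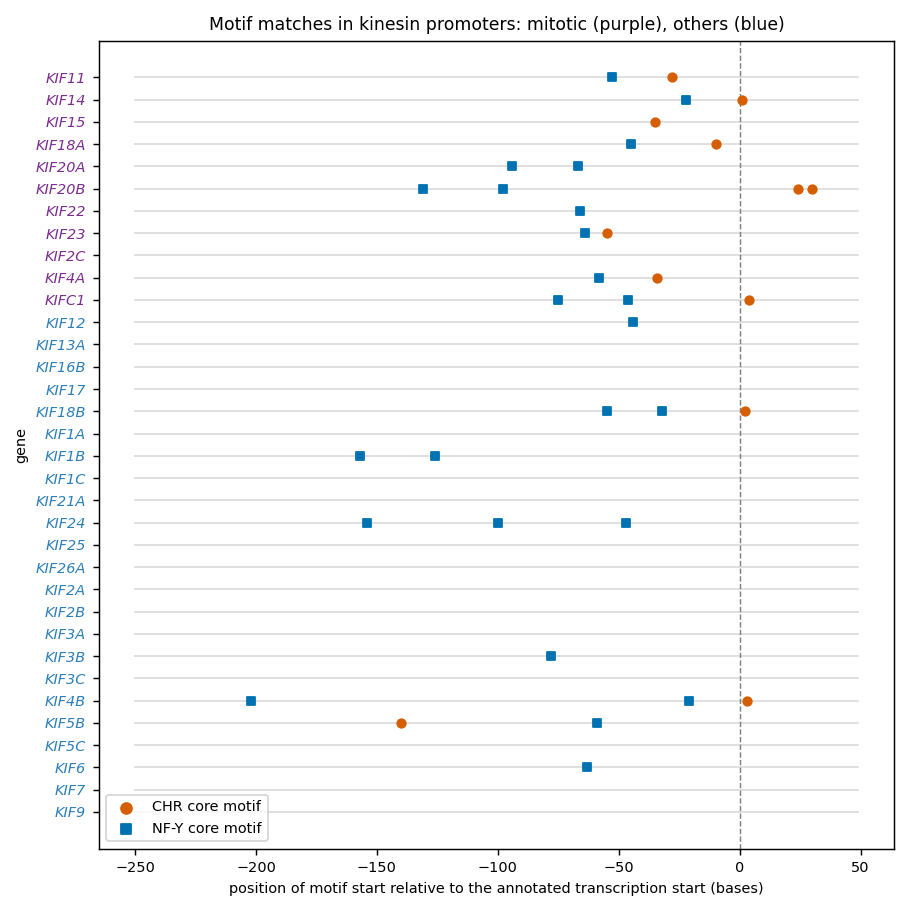
Positions (x axis, bases from the annotated transcription start) of CHR core motifs (circles) and NF-Y core motifs, which are the CCAAT boxes (squares), in the 34 kinesin promoters with an entry (rows, mitotic in purple, others in blue). In the mitotic rows the squares lie between -131 and -22, and 8 of the 11 rows hold a circle.

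Of the 22 other kinesins tested, 7 were called lower and 2 higher at 10 mM, beside 17.5 percent and 12.1 percent of all genes, and 6 lower and 2 higher at 20 mM, beside 21.6 percent and 15.4 percent. Their median log2 fold change was 0.00 at 10 mM and -0.03 at 20 mM. The lower ones at 10 mM were KIF18B, KIF24, KIF2A, KIF7, KIF3C, KIF1C and KIFC3, and the same genes without KIFC3 at 20 mM. KIF16B and KIF17 were higher at both doses. The remaining 13 at 10 mM had log2 fold changes between -0.36 and 0.25, and the 14 at 20 mM between -0.43 and 0.24. The pseudocount holds members at low FPKM near 0 on this scale. In log2 ratios of mean FPKM, KIF25 and KIF26B stood at -0.72 and 0.72 at 10 mM. At 20 mM, KIF21B and KIF26B stood at -1.01 and 0.68. Among the 17 cargo motors, of which 14 were tested, 3 were lower and 2 higher at 10 mM, and 2 lower and 2 higher at 20 mM.

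**Figure D4:**
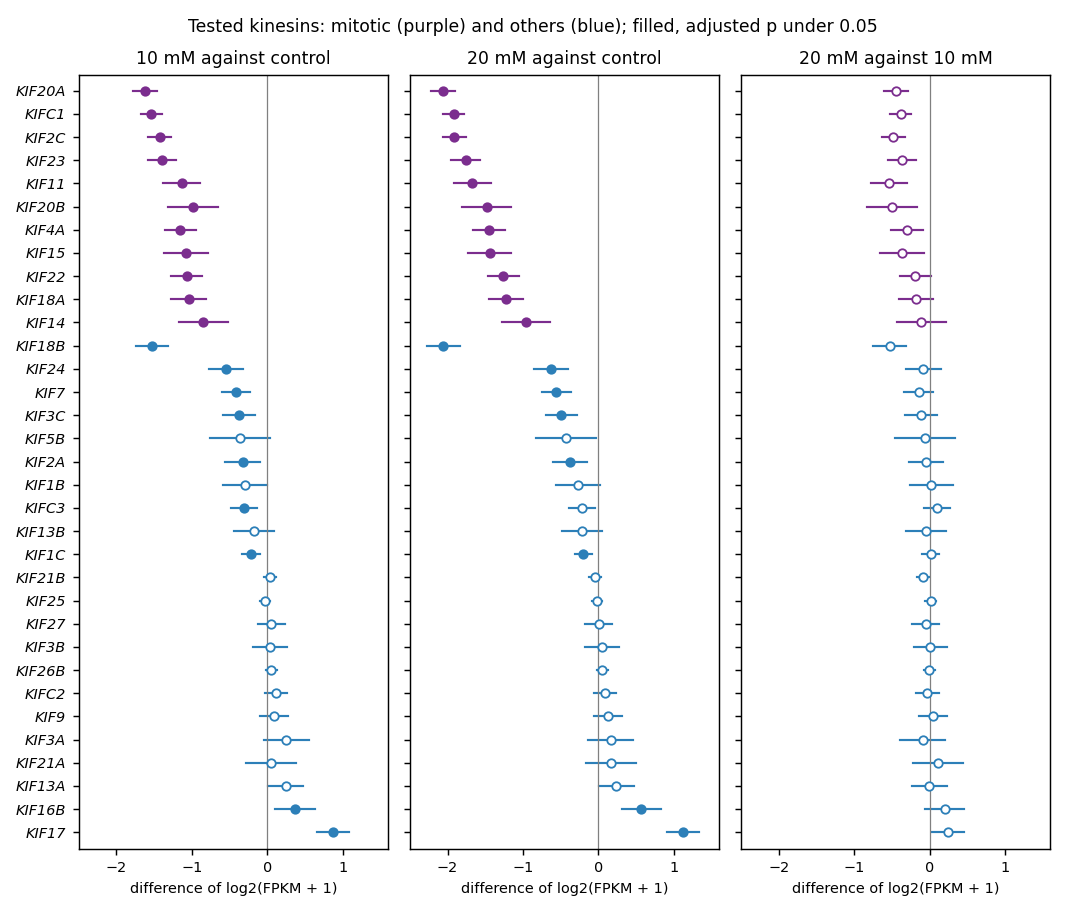
Differences of log2(FPKM + 1) (x axis) for the 33 tested kinesins in the 3 comparisons, mitotic in purple and others in blue, with 95% intervals as lines and filled points for an adjusted p under 0.05. All purple points are filled and left of 0 at both doses against control, most blue points lie near 0, and no point is filled for 20 mM against 10 mM.

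Outside the mitotic list, 3 tested members were grouped here for a role at spindle or centriolar microtubules. The grouping was made with earlier results of these data known and is not a full list of such roles. All 3 were called lower at both doses, beside 17.5 percent of all genes at 10 mM and 21.6 percent at 20 mM. KIF18B (chr17:44924709-44947711, minus strand), which shortens astral microtubules in mitosis, had 27.6, 29.6 and 27.6 FPKM in the control, 9.66, 7.71 and 10.3 FPKM at 10 mM and 5.54, 6.14 and 6.45 FPKM at 20 mM. Its groups did not overlap, and its log2 fold changes of -1.53 ± 0.097 (adjusted p = 5.66e-06) and -2.06 ± 0.097 (adjusted p = 6.21e-07, limma) lay within the range of the 11 mitotic kinesins. KIF24, a centriolar kinesin that restrains cilium formation, had 2.07, 2.36 and 2.07 FPKM, 1.29, 0.892 and 1.33 FPKM and 0.972, 1.19 and 0.966 FPKM at 0, 10 and 20 mM (log2 fold changes -0.55 ± 0.1 and -0.63 ± 0.1). KIF2A, a relative of KIF2C that works at spindle poles and also in neurons, went from 2.55, 2.91 and 3.09 FPKM to 1.96, 1.85 and 2.42 FPKM and to 1.79, 1.95 and 2.16 FPKM. Both separated control from treated libraries by a smaller step than KIF18B. The call of KIF2A was lost when single libraries were left out. Its adjusted p from limma was 0.038 at 10 mM and 0.0167 at 20 mM. At 10 mM it was 0.0879 and 0.0986 without 10 mM library 1 or 2, 0.0512, 0.0592 and 0.0502 without 20 mM library 1, 2 or 3, and 0.0968 and 0.116 without control library 2 or 3. At 20 mM it was 0.0672 and 0.0518 without 20 mM library 1 or 2 and 0.0602 without control library 3. The call at 10 mM was also lost with upper-quartile scaling and with all genes above 0 tested. KIF2A also shares 428 exon bases with IPO11 on the same strand.

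Among the cargo motors, KIF17 changed most. KIF17 (chr1:20664014-20718017, minus strand), a homodimeric kinesin-2 known for dendritic and ciliary transport, had 0.132, 0.165 and 0.124 FPKM in the control, 1.38, 1.13 and 0.814 FPKM at 10 mM and 1.59, 1.49 and 1.37 FPKM at 20 mM. Every treated library was above every control library, and the 2 doses overlapped. The recovered reads summed to 67, 547 and 688, and the mean FPKM was 7.88-fold and 10.6-fold that of the control. On the log2(FPKM + 1) scale the differences were 0.88 ± 0.095 (adjusted p = 0.000134) and 1.12 ± 0.095 (adjusted p = 1.84e-05, limma), which are smaller because of the pseudocount. KIF17 remained a low-level kinesin, 30th of 42 in the control and 26th at 20 mM by mean FPKM.

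KIF16B, a kinesin-3 that moves early endosomes, had 1.59, 2.27 and 2.11 FPKM in the control, 3.35, 2.43 and 2.81 FPKM at 10 mM and 3.53, 3.37 and 3.35 FPKM at 20 mM. The treated libraries were all above the control libraries, by 1.44-fold and 1.72-fold in the mean. At 20 mM the log2 fold change was 0.57 ± 0.12 (adjusted p = 0.004, limma), and it stayed called without any 1 library. At 10 mM it was 0.37 ± 0.12 (adjusted p = 0.0379), and the call was lost without 10 mM library 1 or 3 (0.108 and 0.082), without control library 1 or 3 (0.12 and 0.0625) and without 20 mM library 1, 2 or 3 (0.0568, 0.0581 and 0.0571), as the spread is shared over all groups. The call at 10 mM was also lost with all genes above 0 tested and with a replicate block.

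KIF1C, a kinesin-3 that carries vesicles and messenger RNA and was the most abundant kinesin after treatment, had 46.0, 43.8 and 43.1 FPKM in the control, 39.1, 36.9 and 38.1 FPKM at 10 mM and 37.6, 38.7 and 39.0 FPKM at 20 mM. The treated libraries lay below the control in every case, but by a small step, with 85.8% and 86.7% of the control level left. Its adjusted p from limma was 0.0104 and 0.0115, but 0.0623 and 0.154 with upper-quartile scaling, 0.0463 and 0.0785 with median-ratio scaling, and 0.0544 at 20 mM without 20 mM library 1. By limma-voom with median-ratio factors, KIF1C was not called at either dose. KIF3C, a kinesin-2 subunit that pairs with KIF3A, had 6.94, 6.90 and 7.22 FPKM, 6.06, 4.88 and 4.67 FPKM and 5.00, 4.76 and 4.38 FPKM at 0, 10 and 20 mM. Its groups of control and treated libraries did not overlap, and its log2 fold changes were -0.38 ± 0.093 (adjusted p = 0.0133, or 0.0505 without 10 mM library 3) and -0.49 ± 0.093 (adjusted p = 0.00265, limma).

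KIF3A, the partner of KIF3C, and KIF3B, which pairs with KIF3A in the heterotrimeric kinesin-2 that runs in cilia, were not called. KIF3B had 15.6, 18.8 and 16.3 FPKM in the control, 20.2, 15.6 and 16.4 FPKM at 10 mM and 17.1, 16.8 and 18.5 FPKM at 20 mM. The groups overlapped, and the differences were 0.04 (95% interval -0.19 to 0.26) and 0.05 (-0.18 to 0.27). KIF3A, at 1.26 ± 0.162 FPKM in the control and 1.71 ± 0.384 and 1.54 ± 0.336 FPKM after treatment, was not called (adjusted p = 0.178 and 0.374, limma), though at 10 mM it was called higher without 10 mM library 2 (0.0479). Whether KIF3C differed from KIF3A or KIF3B in its response was not tested.

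KIF5B, the ubiquitous heavy chain of conventional kinesin-1, had 24.8, 34.1 and 35.9 FPKM in the control, 30, 18.1 and 25.6 FPKM at 10 mM and 22.3, 21.5 and 25.3 FPKM at 20 mM. Control and treated libraries overlapped, and it was not called (adjusted p = 0.16 and 0.089, limma). At 20 mM, it was called lower without control library 1 (0.0305) or 10 mM library 2 (0.0297) and by limma-voom (0.0419), also with median-ratio factors. KIFC3, a kinesin-14 of cell junctions and the Golgi, had 30.4, 30.4 and 27.5 FPKM, 24.2, 25.8 and 20.9 FPKM and 25, 25.3 and 25.1 FPKM. Its libraries separated control from both doses, with an adjusted p of 0.0137 at 10 mM and 0.0503, just above the threshold, at 20 mM. At 20 mM it was called without 10 mM library 2 or 3 (0.0278 and 0.02) or control library 3 (0.0419). KIFC3 was also called there by limma-voom, with a replicate block and with a filter of 10 reads in every library. KIFC2 stayed at 13.3 ± 0.186, 14.5 ± 0.842 and 14.2 ± 0.953 FPKM, with intervals of the log2 difference of -0.03 to 0.26 and -0.06 to 0.24.

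KIF13A, which carries recycling endosomes, had 4.54, 5.50 and 5.03 FPKM in the control, 7.10, 5.14 and 6.27 FPKM at 10 mM and 6.10, 6.13 and 6.06 FPKM at 20 mM. The 20 mM libraries were all above the control, but it was not called (adjusted p = 0.111 and 0.103, limma). Without 10 mM library 2 it was called higher at both doses (0.0181 and 0.0419), and with upper-quartile scaling too (0.0474 and 0.0298). Limma-voom with median-ratio factors also called KIF13A higher at both doses, and median-ratio scaling at 20 mM. KIF13B went from 3.23 ± 0.487 to 2.76 ± 0.504 and 2.63 ± 0.122 FPKM, and KIF1B, a mitochondrial and vesicle motor, from 2.28 ± 0.438 to 1.67 ± 0.382 and 1.70 ± 0.148 FPKM, neither called. KIF1B at 10 mM was called lower without 10 mM library 1 (0.0432) and by limma-voom (0.0406), also with median-ratio factors. KIF21A had 1.75 ± 0.224, 1.89 ± 0.595 and 2.08 ± 0.248 FPKM. KIF21B had few reads (92, 128 and 45 per group). Its 20 mM libraries lay below every control and every 10 mM library, at 49.5% and 35.9% of those means, but it was not called in any comparison (adjusted p = 0.317 for 20 mM against control and 0.706 for 20 mM against 10 mM, limma; 0.119 and 0.652 by limma-voom).

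**Figure D5:**
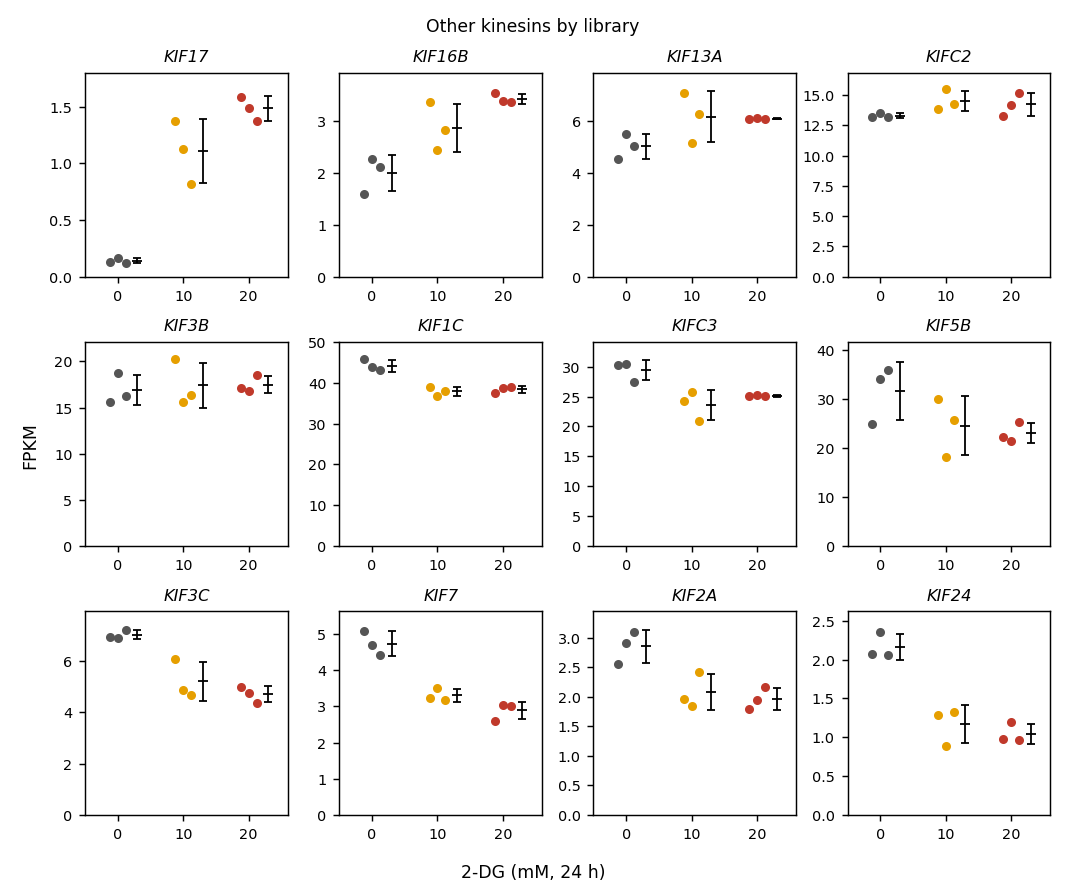
FPKM (y axis, from 0) of 12 other kinesins against the dose of 2-DG (x axis, mM), with points for libraries and bars for the mean ± SD of 3 libraries. KIF17 and KIF16B lie higher after treatment, and KIF24, KIF7 and KIF3C lower. KIF3B (15.6 to 20.2 FPKM over all libraries) and KIFC2 (13.2 to 15.5 FPKM) were not called.

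Of the 5 tested kinesins with ciliary or less known roles, KIF7 was the only one called at either dose. KIF7 (chr15:89608789-89655451, minus strand), the kinesin-4 that organises cilium tips for Hedgehog signalling, had 5.09, 4.69 and 4.42 FPKM in the control, 3.24, 3.50 and 3.17 FPKM at 10 mM and 2.61, 3.04 and 3.02 FPKM at 20 mM. Its groups of control and treated libraries were separate, with log2 fold changes of -0.41 ± 0.086 (adjusted p = 0.00563) and -0.56 ± 0.086 (adjusted p = 0.000751, limma). KIF7 shares 589 of its 5001 annotated exon bases with TICRR, a gene of DNA replication on the opposite strand, and the part of these bases in the result was not tested. KIF9 had 1.79 ± 0.102, 1.96 ± 0.154 and 2.06 ± 0.132 FPKM, and KIF27 0.584 ± 0.0366, 0.65 ± 0.136 and 0.589 ± 0.13 FPKM. KIF25 and KIF26B did not exceed 0.136 FPKM in any library. KIF26B had 101, 171 and 157 reads per group, and every treated library lay above every control library, at 164% and 161% of the control mean, but it was not called (adjusted p = 0.22 and 0.226, limma, and 0.095 and 0.0921 by limma-voom).

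The mitotic kinesins work with a set of regulators and spindle proteins, and a list of 30 of these was compared in the same fit. Of 30 tested, 29 were lower at 10 mM, beside 17.5 percent of all genes, and 29 at 20 mM, beside 21.6 percent, with medians of -1.24 and -1.55. CENPE, the kinetochore kinesin outside the naming rule, had 3.62, 4.96 and 6.03 FPKM in the control, 1.87, 1.27 and 2.22 FPKM at 10 mM and 1.13, 0.995 and 1.13 FPKM at 20 mM (log2 fold changes -1.07 and -1.47). CEP55, which recruits the abscission machinery, CDK1, the kinase of mitotic entry, and NDC80, the microtubule anchor of the kinetochore, had the largest log2 fold changes at 20 mM, -2.13, -2.12 and -2.02. The exception was NUSAP1, listed at 0.136 ± 0.126 FPKM in the control and not called. PRC1, the microtubule bundler that binds KIF4A, was called lower but from only 0.336 ± 0.124 FPKM in the control. Both values are uncertain, since NUSAP1 shares 1787 of its 2875 annotated exon bases, and PRC1 3226 of 5525, with other genes, and how such reads were counted is not given in the sources used here.

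Partners of the transport motors formed another list. Of 21 kinesin light chains and cargo adaptors, 20 were tested, and 2 were lower and 6 higher at 10 mM, and 1 lower and 7 higher at 20 mM, beside 17.5 and 12.1 percent of all genes at 10 mM and 21.6 and 15.4 percent at 20 mM. The others were not called, and whether this list differed from the mitotic partners was not tested. PLEKHM1, an adaptor of lysosomes and autophagosomes, rose from 12.6 ± 1.26 FPKM to 23.2 ± 2.56 and 25.7 ± 1.36 FPKM. KIFAP3, which joins KIF3A and KIF3B to cargo, rose from 3.41 ± 0.608 to 4.74 ± 0.272 and 5.18 ± 0.279 FPKM. TRAK1, the mitochondrial adaptor, fell from 8.91 ± 0.487 to 7.07 ± 1.02 and 6.52 ± 0.168 FPKM.

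Of 33 tested genes of dynein and dynactin, the motor complex that runs opposite to most kinesins, 7 were lower and 1 higher at 10 mM, beside 17.5 and 12.1 percent of all genes, and 8 lower and 2 higher at 20 mM, beside 21.6 and 15.4 percent, with medians of -0.06 and -0.07. The shares called lower were thus near those of all genes. SPDL1, which brings dynein to kinetochores in mitosis, had the largest change of these, from 11.3 ± 1.16 to 5.39 ± 0.547 and 4.48 ± 0.145 FPKM. Of 14 tested tubulins, 9 were lower and 1 higher at 10 mM, and 10 lower and 1 higher at 20 mM, beside these same shares of all genes, with medians of -0.50 and -0.49. TUBA1B went from 171 ± 12 to 78.6 ± 4.04 and 73.7 ± 2.13 FPKM. Reads of near-identical tubulin genes may be split between them, so single tubulin values are uncertain. None of these lists had a gene called between 20 mM and 10 mM by limma.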

How the data were processed

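RNA of 9 libraries from MDA-MB-231 cells was analysed (0, 10 and 20 mM 2-DG for 24 h, 3 libraries each). Per the labels, total RNA was extracted with a column kit and libraries were made with a SMARTER mRNA-Seq kit. The authors deposited FPKM values for 61552 genes, 20495 of them without a name. The submitters' processing notes name GRCh38 (hg38). The aligner, the counting tool and the use of strand are not given in the sources used here. The lactate-treated libraries are not analysed here.

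Whole reads were recovered from the FPKM steps for all 32806 genes above 0, and they summed to between 99.8% and 99.9% of the totals. They served for the filter (at least 10 reads at the median depth of 35138071 in at least 3 libraries, and at least 15 in all), for read counts in the text and for limma-voom as an alternative. Whether reads or fragments were counted is not known. The main test was limma 3.58.1 in R 4.3.3 on log2(FPKM + 1) with a variance trend, all 9 libraries in one fit, and Benjamini-Hochberg adjustment over 16572 genes. Every comparison shares its control or treated libraries with another one. Data were simulated for the 3 comparisons with 200 of 16572 genes changed 4-fold and the same dispersion for every gene and group. Limma recovered 183 (10 mM against control), 190 (20 mM against control) and 187 (20 mM against 10 mM). It called 6, 10 and 6 unchanged genes. Smaller changes, such as those of most other kinesins called, and a spread that differs between groups were not simulated.

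All members of the naming rule are accounted for. Values per library are given for the mitotic members and for others that were called or chosen for their role, and of the partner lists CENPE and at most 3 called genes per list and direction with the largest change at 20 mM. One gene that this rule names is not reported here. NUSAP1 and PRC1 were named after their values were seen. The members and lists were chosen with earlier results of these data known. No 2 libraries agreed within sampling noise (chi-square per gene of 4.66 to 56.7 within groups). Promoters came from RefSeq (GRCh38.p14), exon positions from GENCODE release 29. The GENCODE 29 exon length gave whole reads for 48.6% of the genes above 0, so the gene models behind the FPKM may differ from it. Motifs were searched on both strands. Of all kinesins, 19 share annotated exon bases with another gene. Alternatives were other scalings, filters, pseudocounts, thresholds and groupings, limma-voom, a replicate block and leaving out each library. Figures were drawn with matplotlib.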

Additional observations from a re-analysis of the deposited data

How the results depend on the processing

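The counts of mitotic kinesins called (11 lower, 0 higher at each dose) were the same under every other fit run (9 and 10 lower by the study's thresholds), and no called kinesin changed direction. The median of the other kinesins, near 0, changed sign between settings (0.00 at 10 mM, -0.0674 with at least 10 reads in every library). Medians moved where the pseudocount or the fit changed the scale. With a pseudocount of 0.1 the mitotic median was -1.28 at 10 mM, -1.91 at 20 mM and -0.44 for 20 mM against 10 mM, and the median of the others -0.0896 and -0.16 against control. With limma-voom these were -1.31, -1.98 and -0.45, and -0.0914 and -0.22. With limma-voom and median-ratio factors, the mitotic median was -1.92 at 20 mM and -0.43 between the doses, and that of the others -0.16 at 20 mM. Upper-quartile factors gave a mitotic median of -0.35 between the doses, and a filter of 10 reads in every library a median of the others of -0.10 at 20 mM. By the study's thresholds, 1 other kinesin was lower and 0 higher at 10 mM, 1 lower and 1 higher at 20 mM, and 288, 484 and 1 of all genes were called in the 3 comparisons. These counts rest on differences of log2(FPKM + 1), where KIF17 at 10 mM stood at 0.88 although its mean FPKM was 7.88-fold. With KIF18B, KIF2A, KIF4B and KIF24 moved to the mitotic group, 4 and 3 others were lower, and with cargo motors alone 3 and 2. The mitotic shares of summed FPKM were then 61.3%, 39.0% and 32.0%, and without KIF1C 59.7%, 40.2% and 33.8%. With all genes above 0 tested, 1 other kinesin was higher at 10 mM and 3 genes were called between the doses.

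Without any 1 library, other kinesins called higher at 10 mM ranged from 1 to 4, genes called between the doses from 0 to 4 (4 without 10 mM library 1), the mitotic median from -1.59 to -1.39 at 20 mM and from -0.44 to -0.32 between the doses, and the median of the others from -0.0798 to 0.0145 at 10 mM and from -0.0756 to 0.0186 between the doses. Among the named kinesins, 45 calls were lost and 21 gained over all alternatives, and in the other 744 cases, called or not called, the side of the threshold was the same.

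The labels number the libraries 1 to 3 in each group, and no pairing by these numbers was seen. Deviations from group means correlated between -0.41 and 0.29 for the 9 pairs with the same number, and up to 0.52 for different numbers, so not every library correlated best with its own number. Deviations from a mean of 3 libraries depend on each other, so a batch or culture shared by equal numbers cannot be judged from them. With a replicate block, 1 other kinesin was higher at 10 mM (KIF16B lost its call, adjusted p = 0.0773 from limma), 7 were lower at 20 mM, and 4306 and 5546 genes were called against control.

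The 9 untested kinesins had at most 25 reads over all libraries, too few for the test used here. KIF21B, KIF25 and KIF26B had at most 171 reads per group and no call.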
